A study of Homo sapiens with 8 samples.

Results

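The genes described here encode the deubiquitinase A20 and its partners, the cellular inhibitors of apoptosis, and other products that act on TNF signaling or are induced by TNF. They were a named set of 10: TNFAIP3, CYLD, TNIP1, TNIP2, TRAF1, TRAF2, BIRC2, BIRC3, TNFAIP2 and TNFAIP8. The set, and the gene lists below, were chosen with earlier results of these data known. Within the set, probesets were chosen by the gene symbol of the array's annotation, without use of their signals. By that rule 8 of the 33297 probesets on the arrays were members, 1 each for 8 genes. No probeset carried the symbol TRAF2 or BIRC3 in the annotation used here, so that these 2 genes were not analysed here. The cells were DU145, a human prostate cancer line, and RNA of 4 groups was hybridised to 8 Affymetrix Human Gene 1.0 ST arrays, 2 a group, named biological replicates in the labels. According to the labels, all dishes were kept without serum from the day before treatment. The FGF19 + TNFα cells received 50 ng/ml FGF19 with 100 µg/ml heparin for 10 min and then 50 ng/ml TNFα for 90 min more. The TNFα cells had 50 ng/ml TNFα for 90 min, the FGF19 cells 50 ng/ml FGF19 with 100 µg/ml heparin for 100 min, and Mock cells were left untreated. The study's methods give other doses, 50 µg/ml heparin and 10 ng/ml TNFα. Heparin is named only for the groups given FGF19, so that effects of FGF19 and of heparin cannot be told apart, and "FGF19" below stands for both.

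When TNFα binds its receptor, adaptor proteins such as TRAF2 bring the cIAP ubiquitin ligases (encoded by BIRC2 and BIRC3) to the receptor complex, and the ubiquitin chains built there recruit the kinases that release NFκB. The deubiquitinases A20 (TNFAIP3) and CYLD edit or remove such chains and thereby restrain the pathway, and TNIP1 and TNIP2 (also known as ABIN proteins) bind A20. TNFAIP3 is a textbook target of NFκB and one of its best known negative feedback genes. TRAF1 and BIRC3 are likewise NFκB targets, TNFAIP2 and TNFAIP8 were named for their induction by TNF, and TNFAIP8 is known as an inhibitor of apoptosis.

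Promoter windows were searched for κB elements, the sequences to which NFκB binds, as a description, and no test linked a match to a gene's response. RefSeq (GRCh38.p14) gave 18 promoter windows for the 10 genes, each of 300 bases from 250 before to 50 after an annotated start. The 10-base κB consensus was searched on both strands. It was found in 5 of these 18 windows, of 4 genes (TNFAIP3, CYLD, TNIP1 and BIRC3), against 11.3% of all 35116 windows of this length. By gene, 13.3% of 27305 genes with a window had a match. The windows of CYLD overlap in part, as do those of BIRC2, so that windows are not separate counts. In the window of TNFAIP3 there were 2 matches, GGAAAGTCCC at −67 to −58 bases from the start and GGAAATCCCC at −55 to −46, both of which match on the opposite strand. In 1 of the 2 windows of TNIP1 the match GGGACTTTCC lay at −42 to −33 bases, and it is the same 10-base site as the first match of TNFAIP3 read from the other strand. The second window of CYLD held GGAAAGTCCC as well, at −189 to −180 bases, and a further window of CYLD held GGGGCTTCCC, which matches on either strand and covers the first 10 bases from the start. BIRC3 had 2 matches, GGAAATCCCC at −199 to −190 and GGAGTTCCCC at −135 to −126 bases. TNIP2, TRAF1, TRAF2, BIRC2, TNFAIP2 and TNFAIP8 had 0 matches in their windows, which says only that these letters were not in these windows. Of the 7 genes called higher with TNFα than in Mock, TNFAIP3, CYLD and TNIP1 had a match and TRAF1, BIRC2, TNFAIP2 and TNFAIP8 had none. For comparison, 5 of the 18 windows follow, 5′ to 3′ on the gene's strand, with matches in capitals. They are those of TNFAIP3, 1 window each of TNIP1 and CYLD chosen because it held a match, and the single windows of TNIP2 and TNFAIP2, which held none. The other TNIP1 window and the first CYLD window, not shown, had 0 matches as well.
TNFAIP3 (chr6:137867009-137867308, plus strand): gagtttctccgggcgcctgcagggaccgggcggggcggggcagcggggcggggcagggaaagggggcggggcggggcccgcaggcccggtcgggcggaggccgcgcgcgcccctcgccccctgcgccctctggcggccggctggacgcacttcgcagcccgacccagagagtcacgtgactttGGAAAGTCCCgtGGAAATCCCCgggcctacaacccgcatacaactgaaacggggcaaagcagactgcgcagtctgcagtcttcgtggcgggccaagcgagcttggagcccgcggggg
TNIP1 (chr5:151080985-151081284, minus strand): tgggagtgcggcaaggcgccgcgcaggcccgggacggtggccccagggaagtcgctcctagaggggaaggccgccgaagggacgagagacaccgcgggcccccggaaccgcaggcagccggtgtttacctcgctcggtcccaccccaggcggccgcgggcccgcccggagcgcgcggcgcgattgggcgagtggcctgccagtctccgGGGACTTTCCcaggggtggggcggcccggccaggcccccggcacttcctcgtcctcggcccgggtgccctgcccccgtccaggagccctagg
CYLD (chr16:50741836-50742135, plus strand): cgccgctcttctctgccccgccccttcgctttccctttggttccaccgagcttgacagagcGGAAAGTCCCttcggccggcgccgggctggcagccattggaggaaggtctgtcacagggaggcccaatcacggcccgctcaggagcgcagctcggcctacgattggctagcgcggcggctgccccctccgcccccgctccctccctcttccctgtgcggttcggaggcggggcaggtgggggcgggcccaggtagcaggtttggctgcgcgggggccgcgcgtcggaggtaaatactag
TNIP2 (chr4:2756287-2756586, minus strand): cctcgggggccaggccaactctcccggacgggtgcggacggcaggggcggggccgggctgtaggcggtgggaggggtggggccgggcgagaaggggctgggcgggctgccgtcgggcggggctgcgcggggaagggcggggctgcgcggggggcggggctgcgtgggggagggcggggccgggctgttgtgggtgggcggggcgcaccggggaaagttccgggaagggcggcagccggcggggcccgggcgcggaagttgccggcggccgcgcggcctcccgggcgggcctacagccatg
TNFAIP2 (chr14:103123211-103123510, plus strand): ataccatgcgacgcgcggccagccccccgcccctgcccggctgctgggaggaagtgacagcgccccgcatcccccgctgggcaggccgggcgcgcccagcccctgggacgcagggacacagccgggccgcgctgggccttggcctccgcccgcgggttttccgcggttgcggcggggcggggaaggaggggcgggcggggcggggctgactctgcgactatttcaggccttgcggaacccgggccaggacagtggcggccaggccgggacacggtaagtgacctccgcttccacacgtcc

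**Figure D1:**
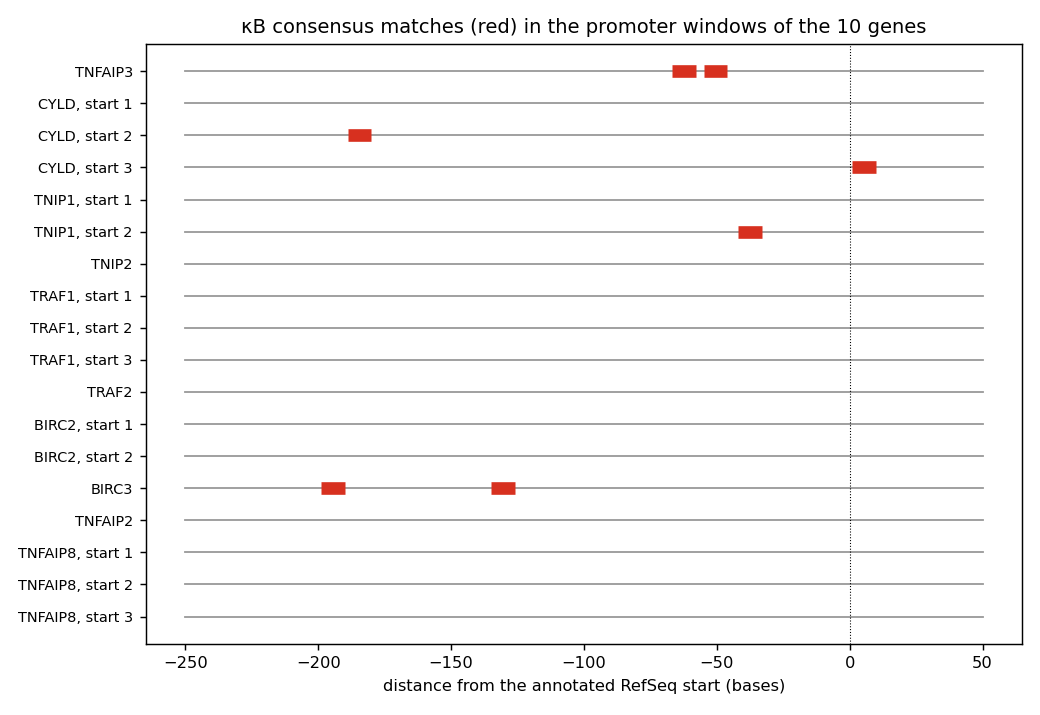
Promoter windows of the 10 genes (rows; genes with several annotated starts have a row for each) against the distance from the start in bases, with matches to the κB consensus in red. Matches lie in 5 of the 18 windows, and those of TNFAIP3 sit together between −67 and −46.

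Array medians of signal ranged from 99.54 to 106.63, and log2 signals of the 2 arrays in a group had correlations of 0.967 to 0.980 over all probesets. With 2 arrays a group, precision is limited throughout. Signal is the linear PLIER intensity the authors deposited, and differences are between group means of log2 signal, given ± their standard error. They were tested with limma in 1 fit of all 33297 probesets and 8 arrays, with p-values adjusted over all probesets by the method of Benjamini and Hochberg, and a probeset was called at an adjusted p under 0.05. The epithelial markers KRT8, KRT18, KRT19, KRT7, EPCAM and CDH1, 6 of 6 listed, lay between the 80.6th and 98.6th percentile of signal on every array. Of the androgen-responsive prostate markers, KLK3 and KLK2 were measured and lay between the 25.1th and 42.1th percentile. Of 8 measured markers of blood, fibroblast and endothelial cells, 7 lay between the 22.8th and 54.1th percentile or, for CDH5, between the 71.7th and 76.1th, and PTPRC was below the 20th percentile on every array. In RNA from whole dishes, fewer cells of a kind and less RNA per cell cannot be told apart.

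Over the 4 groups together, 8 of 8 members differed by limma's moderated F test at an adjusted p under 0.015, a threshold passed by 20.9% of all probesets. The study ran an analysis of variance on these arrays at the same corrected p. Members were chosen with earlier results of these data known, so the count is not independent evidence. Without Mock replicate 1 or 2 the count was 5.

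TNFα raised 7 of the 8 measured genes relative to Mock, most of all TNFAIP3, and TNIP2 was the exception. A call of higher was made for 0.967% of all probesets, a call of lower for 0.0961% and a call in either direction for 1.06%, while 0 members were lower. The median log2 difference was 1.11 over the 8 members and −0.04 over all probesets. Members were chosen with earlier results of these data known, so their excess over all probesets is not independent evidence. On all 8 members both TNFα arrays were above both Mock arrays, an order found in 20.6% of all probesets, with 30.9% in the opposite order.

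TNFAIP3, the A20 gene, had signals of 2392.83 and 2395.77 with TNFα, against 219.93 and 235.36 in Mock. The TNFα arrays were nearly equal and far above the Mock arrays. This was a 10.5-fold rise (log2 difference 3.40 ± 0.10, adjusted p = 0.000372), the 38th highest difference of the 33297 probesets. CYLD, which encodes the other deubiquitinase, had signals of 943.37 and 1017.27 with TNFα, against 553.52 and 517.49 in Mock. Its rise was 1.83-fold (log2 difference 0.87 ± 0.09, adjusted p = 0.00984). The 2 groups did not overlap for either deubiquitinase.

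Of the genes for A20-binding proteins, TNIP1 had signals of 1502.26 and 1532.56 with TNFα, against 824.26 and 822.29 in Mock. It rose 1.84-fold (log2 difference 0.88 ± 0.08, adjusted p = 0.00898). TNIP2 had signals of 448.4 and 441.05 with TNFα, against 408.44 and 382.51 in Mock. The TNFα arrays were again higher, but the difference of 0.17 on the log2 scale (standard error 0.10, 95% interval −0.06 to 0.40) was not called (adjusted p = 0.526). The TNFα intervals of TNIP1 (0.68 to 1.09) and TNIP2 did not overlap.

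TRAF1, an adaptor that binds TRAF2 and cIAPs, had signals of 162.54 and 210.63 with TNFα, against 45.93 and 48.2 in Mock. It rose 3.93-fold (log2 difference 1.98 ± 0.14, adjusted p = 0.00337). Its Mock signals were not far above the 20th percentile of those arrays (30.9 and 31.6), and with 16 added to every signal before log2 the difference was 1.67. BIRC2, the gene of cIAP1, had signals of 2222.92 and 2265.81 with TNFα, against 1271.08 and 1382.24 in Mock. It rose 1.69-fold (log2 difference 0.76 ± 0.08, adjusted p = 0.0147), the smallest of the 7 rises called. Both groups of arrays were well separated for both genes.

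TNFAIP2, which encodes a protein linked to membrane protrusions, had signals of 4160.54 and 4026.64 with TNFα, against 1244.05 and 1074.16 in Mock. It rose 3.54-fold (log2 difference 1.82 ± 0.13, adjusted p = 0.00297). TNFAIP8 had signals of 241.8 and 287.11 with TNFα, against 106.25 and 102.95 in Mock. It rose 2.52-fold (log2 difference 1.33 ± 0.12, adjusted p = 0.00688), a call that ended with no moderation of the variances (adjusted p = 0.0502). By log2 difference the order was thus TNFAIP3, TRAF1, TNFAIP2, TNFAIP8, TNIP1, CYLD, BIRC2 and TNIP2. The 95% intervals of neighbours in this order overlapped, except for TNFAIP3 and TRAF1 (3.14 to 3.65 and 1.62 to 2.33) and for BIRC2 and TNIP2 (0.56 to 0.96 and −0.06 to 0.40). The calls of CYLD and TNIP1 ended on dropping any 1 Mock or TNFα array (adjusted p = 0.0551 to 0.105 and 0.0645 to 0.0977), that of BIRC2 also without either FGF19 + TNFα array (0.0504 to 0.136), and that of TNFAIP8 without Mock replicate 1 or 2 (0.0721 and 0.0795). The count of 7 was then 3 without Mock replicate 1 or 2 and 4 without TNFα replicate 1 or 2, and it was 2 in a fit of the TNFα and Mock arrays alone, where TNFAIP3 and TNFAIP2 were called.

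**Figure D2:**
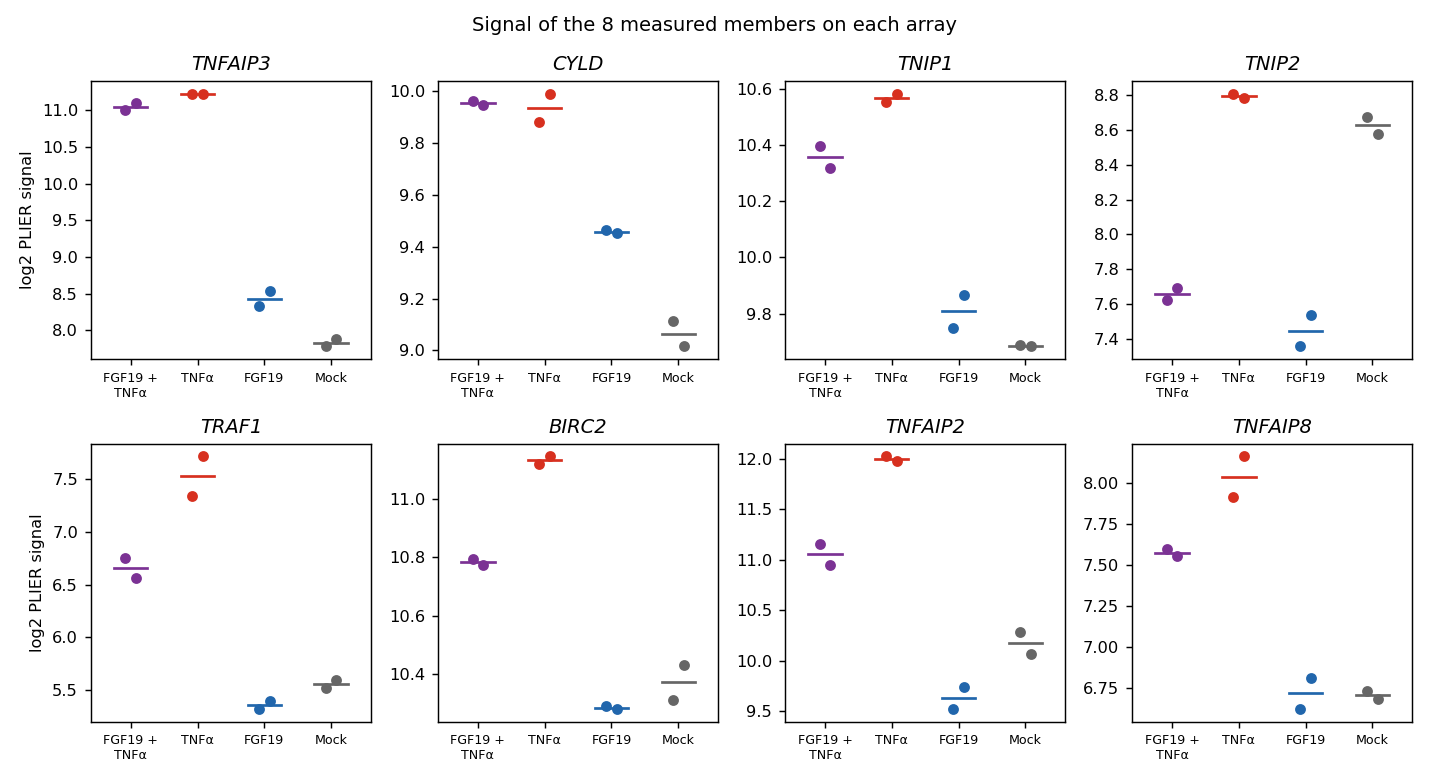
Log2 PLIER signal of the 8 measured genes on each array (dots) with the group mean (bar), for FGF19 + TNFα, TNFα, FGF19 and Mock, 2 arrays each; the vertical scale differs between panels. The TNFα arrays lie above the Mock arrays for all 8 genes, by 3.40 for TNFAIP3 and 0.17 for TNIP2, and TNIP2 is the gene whose 4 arrays with FGF19 lie far below the other 4.

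The effect of TNFα was also measured in cells that had FGF19. Over all probesets 94 were called here, against 354 for TNFα against Mock. The p needed for a call thus differed, so the counts of members called cannot be compared between these comparisons. Between FGF19 + TNFα and FGF19, 3 of 8 members were higher and 0 lower, against 0.279% of all probesets called higher, 0.003% called lower and 0.282% in either direction. The median log2 difference was 0.70 over the members and 0.00 over all probesets. The FGF19 + TNFα arrays again lay above the FGF19 arrays for 8 of 8 members, an order found in 14.8% of all probesets, with 13.7% in the opposite order. Here too the members were chosen with earlier results of these data known, so their excess over all probesets is not independent evidence.

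TNFAIP3 had signals of 2047.69 and 2196.16 with FGF19 + TNFα, against 320.79 and 370.58 with FGF19. This was a 6.15-fold rise (log2 difference 2.62 ± 0.10, adjusted p = 0.0017), with the groups far apart. TRAF1 had signals of 108.08 and 94.29 with FGF19 + TNFα, against 39.85 and 42.17 with FGF19, a 2.46-fold rise (1.30 ± 0.14, adjusted p = 0.0392). TNFAIP2 had signals of 2277.07 and 1979.31 with FGF19 + TNFα, against 733.48 and 851.78 with FGF19, a 2.69-fold rise (1.43 ± 0.13, adjusted p = 0.0163). The TRAF1 signals with FGF19 were close to the 20th percentile of those arrays (36.6 and 34.6).

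The other 5 members were higher on both FGF19 + TNFα arrays than on both FGF19 arrays but were not called. The log2 difference was 0.86 for TNFAIP8 (95% interval 0.57 to 1.14, adjusted p = 0.0793), 0.55 for TNIP1 (0.34 to 0.75, adjusted p = 0.115) and 0.50 for BIRC2 (0.30 to 0.70, adjusted p = 0.144). It was 0.50 for CYLD (0.29 to 0.71, adjusted p = 0.159) and 0.21 for TNIP2 (−0.02 to 0.45, adjusted p = 0.894). Each interval but that of TNIP2 lay above 0 before adjustment. The TNFAIP2 call ended without any 1 of the 8 arrays (adjusted p = 0.0526 to 0.11), and that of TRAF1 without any 1 of the Mock, FGF19 or FGF19 + TNFα arrays (0.135 to 0.192). With the replicate number as a block both ended too, at 0.0503 for TNFAIP2 and 0.0883 for TRAF1, so that 1 of 8 was called, and in a fit of the FGF19 + TNFα and FGF19 arrays alone 0 members and 0 of all probesets were called, TNFAIP3 at an adjusted p of 0.111. With 16 added before log2, 5 were called, with TNIP1 (adjusted p = 0.0455) and TNFAIP8 (0.0263) added.

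Whether the TNFα difference itself depended on FGF19 was tested as the interaction, the TNFα difference with FGF19 minus that without it. No member passed, and 0% of all probesets were called, also without moderation of the variances, while fits with 1 array left out called 0 to 11 of all probesets and 0 members. For 7 of 8 members the TNFα difference was smaller with FGF19, as it was for 44.2% of all probesets. An unadjusted p under 0.05 was reached by 5 members, each with a value below 0, against 5.15% of all probesets in either direction and 2.65% below 0. The interaction subtracts the TNFα difference, which was high in these members, chosen with earlier results of these data known. Values below 0 are thereby favoured, so that all probesets are an unlike comparison here. The interaction was −0.77 for TNFAIP3 (95% interval −1.13 to −0.42, adjusted p = 0.738), whose TNFα difference was 2.62 with FGF19 and 3.40 without it. It was −0.68 for TRAF1 (−1.17 to −0.18, adjusted p = 0.951), −0.47 for TNFAIP8 (−0.88 to −0.07, adjusted p = 0.96) and −0.37 for CYLD (−0.67 to −0.08, adjusted p = 0.96). TNIP1 had −0.33 (−0.62 to −0.04, adjusted p = 0.96). The intervals of TNFAIP2 (−0.84 to 0.04), BIRC2 (−0.54 to 0.02) and TNIP2 (−0.29 to 0.37) reached across 0. At 2 arrays a group, differences of this size were thus not separable from the spread after adjustment over all probesets.

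**Figure D3:**
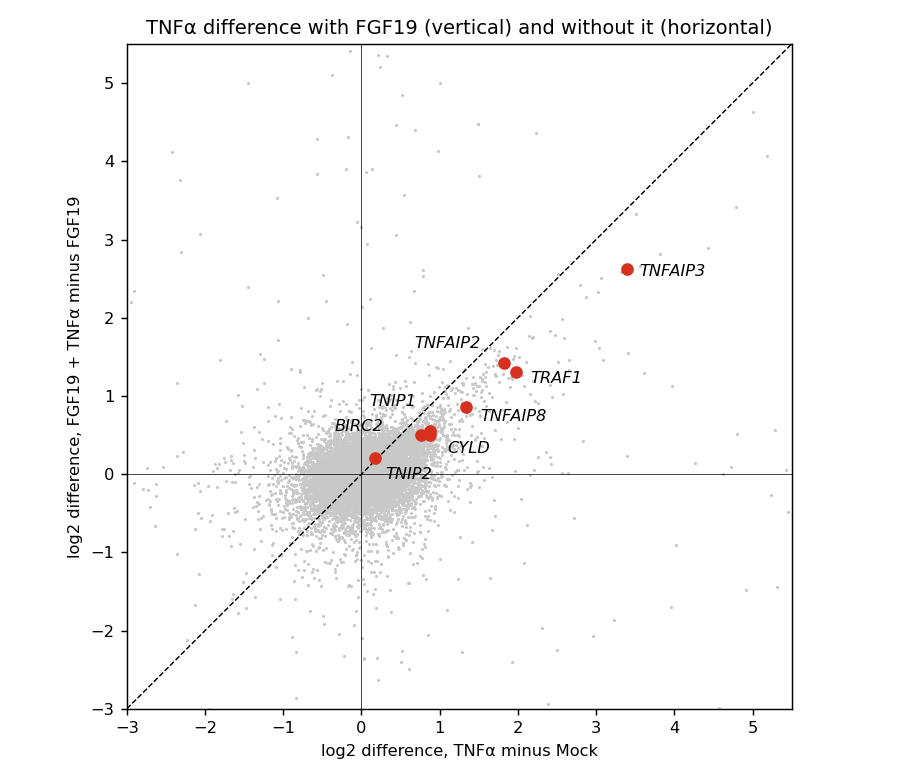
Log2 difference of FGF19 + TNFα minus FGF19 (vertical) against that of TNFα minus Mock (horizontal) for all probesets (grey; 142 of 33297 lie outside the plotted range) and the 8 members (red), with the line of equality dashed. The axes share no array; TNFAIP3 stands at 3.40 and 2.62, and 7 of the 8 members lie below the line.

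FGF19 added to TNFα lowered 5 members relative to TNFα alone: TNIP2, TNFAIP2, TRAF1, TNFAIP8 and BIRC2. Signals of TNFAIP3, CYLD and TNIP1 were not called different. Among all probesets 12.9% were called lower, 19.4% higher and 32.4% in either direction, and 0 of 8 members were higher. The median log2 difference was −0.41 over the members and 0.10 over all probesets. The excess of higher calls over all probesets depended on the scaling, with 5100 higher and 4735 lower after quantile normalization (median 0.01) and 5024 and 4971 after cyclic loess (median 0.01), while the same 5 members were called lower under both. For 7 of 8 members both FGF19 + TNFα arrays were below both TNFα arrays, an order found in 27.6% of all probesets, with 42.4% in the opposite order. This comparison subtracts the TNFα signal, which was high in most of these members, chosen with earlier results of these data known. Values below 0 are favoured by that, so that all probesets are an unlike comparison here too.

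TNIP2, whose product binds A20 and restrains NFκB, had signals of 196.71 and 206.72 with FGF19 + TNFα, against 448.4 and 441.05 with TNFα. It was 2.21-fold lower (log2 difference −1.14 ± 0.10, adjusted p = 0.00348). The study had picked TNIP2 from these arrays for a table of this comparison, so that its call is not independent evidence. The probesets of TNFAIP2 and TNFAIP3 are also in the study's list, from these arrays, of changes against Mock. TNFAIP2 had signals of 2277.07 and 1979.31 with FGF19 + TNFα, against 4160.54 and 4026.64 with TNFα, and was 1.93-fold lower (−0.95 ± 0.13, adjusted p = 0.00467). TRAF1 had signals of 108.08 and 94.29, against 162.54 and 210.63 with TNFα, and was 1.83-fold lower (−0.87 ± 0.14, adjusted p = 0.00767). The groups did not overlap for these 3 genes, and their calls held without any 1 array. That of TRAF1 held only just without FGF19 + TNFα replicate 2 (log2 difference −0.78).

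TNFAIP8 had signals of 193.71 and 188.13 with FGF19 + TNFα, against 241.8 and 287.11 with TNFα. It was 1.38-fold lower (−0.46 ± 0.12, adjusted p = 0.0281). BIRC2 had signals of 1776.77 and 1751.2 with FGF19 + TNFα, against 2222.92 and 2265.81 with TNFα, and was 1.27-fold lower (−0.35 ± 0.08, adjusted p = 0.0235). The groups were separate for both genes. The TNFAIP8 call ended with no moderation of the variances (adjusted p = 0.0549) and in a fit of only the groups compared (0.0582). The call of BIRC2 ended without any 1 of the arrays compared (adjusted p = 0.0824 to 0.111). That of TNFAIP8 ended without Mock replicate 1 or 2, TNFα replicate 2, or FGF19 + TNFα replicate 1 or 2 (0.0536 to 0.134), and the count of 5 was 3 without TNFα replicate 2 or either FGF19 + TNFα array.

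TNFAIP3 had signals of 2047.69 and 2196.16 with FGF19 + TNFα, against 2392.83 and 2395.77 with TNFα. Its log2 difference was −0.18 (95% interval −0.43 to 0.08, adjusted p = 0.24), with both FGF19 + TNFα arrays the lower ones. TNIP1 had signals of 1345.68 and 1276.72, against 1502.26 and 1532.56 with TNFα (−0.21, −0.42 to −0.01, adjusted p = 0.106). CYLD had signals of 998.55 and 987.88, against 943.37 and 1017.27 with TNFα, and here the groups overlapped (0.02, −0.19 to 0.23, adjusted p = 0.881).

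Without TNFα, FGF19 raised the deubiquitinase genes TNFAIP3 and CYLD relative to Mock and lowered TNIP2 and TNFAIP2. The other 4 members were not called. Calls were common in this comparison, with 18.2% of all probesets higher, 14.1% lower and 32.2% in either direction, so that 4 of 8 is no result about the members as a set. Both FGF19 arrays were above both Mock arrays for 3 members, an order of 39.1% of all probesets, and below them for 4, an order of 27.8%. The median log2 difference was −0.04 over the members and 0.08 over all probesets.

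TNFAIP3 had signals of 320.79 and 370.58 with FGF19, against 219.93 and 235.36 in Mock. It rose 1.52-fold (log2 difference 0.60 ± 0.10, adjusted p = 0.00776), less than with TNFα but with no overlap between groups. CYLD had signals of 706.61 and 700.23 with FGF19, against 553.52 and 517.49 in Mock, and rose 1.31-fold (0.39 ± 0.09, adjusted p = 0.0163). TNIP2 had signals of 163.82 and 185.3 with FGF19, against 408.44 and 382.51 in Mock. It was 2.27-fold lower (−1.18 ± 0.10, adjusted p = 0.00275), rank 600 from the lowest of the 33297 probesets. TNFAIP2 had signals of 733.48 and 851.78 with FGF19, against 1244.05 and 1074.16 in Mock, and was 1.46-fold lower (−0.55 ± 0.13, adjusted p = 0.0211). No FGF19 array overlapped a Mock array for these 4 genes. The TNFAIP2 call ended with no moderation of the variances (adjusted p = 0.0502). In a fit of the FGF19 and Mock arrays alone, the calls of TNFAIP2 (0.0601) and CYLD (0.0685) ended.

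The members not called with FGF19 had log2 differences of 0.12 (TNIP1, 95% interval −0.08 to 0.33), −0.20 (TRAF1, −0.55 to 0.15), −0.09 (BIRC2, −0.29 to 0.11) and 0.01 (TNFAIP8, −0.28 to 0.30). The TNFAIP3 call ended without Mock replicate 1 (adjusted p = 0.0515). That of CYLD ended without Mock replicate 1 or 2 or FGF19 replicate 1 (0.0509 to 0.0947), and that of TNFAIP2 without Mock replicate 1 or FGF19 replicate 1 (0.112 and 0.0843). The count of 4 was 1, TNIP2, without Mock replicate 1, and it was 2 without FGF19 replicate 1 and in a fit of the FGF19 and Mock arrays alone.

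The FGF19 comparisons with and without TNFα share no array, and TNIP2 had nearly the same difference in both, −1.14 and −1.18. In each of the 15 alternatives TNIP2 stayed called in both comparisons, with differences of −1.18 to −1.08 with TNFα and −1.27 to −1.09 without it. TNFAIP3 had −0.18 with TNFα and 0.60 without it, and CYLD 0.02 and 0.39. The value with TNFα was the lower one for TRAF1, TNFAIP8 and BIRC2 too, with −0.87, −0.46 and −0.35 with TNFα and −0.20, 0.01 and −0.09 without it. The difference between such a pair of values is the interaction given above, which no member passed.

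**Figure D4:**
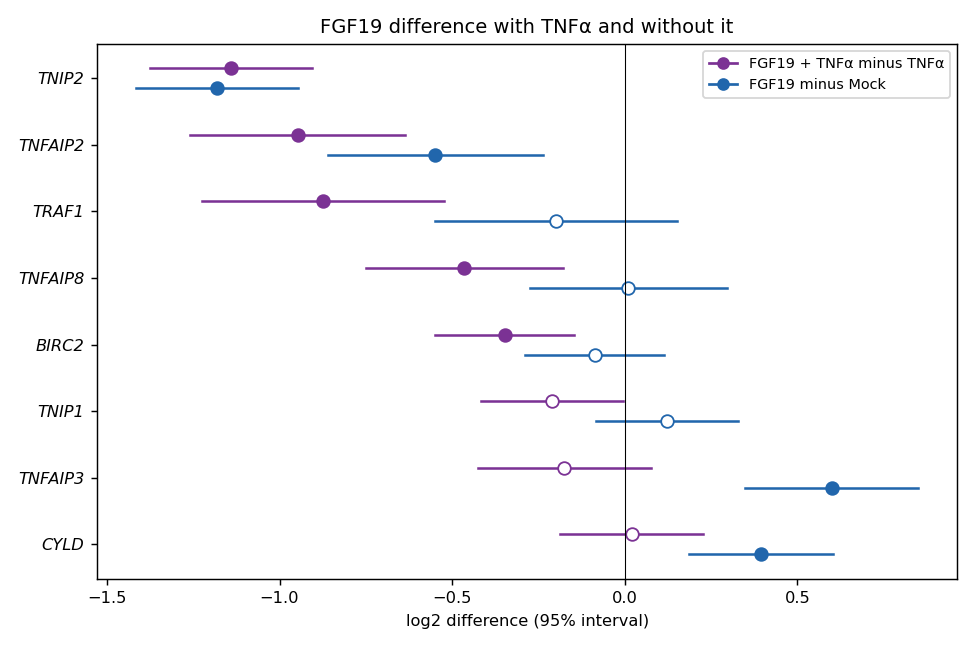
Log2 differences for FGF19 + TNFα minus TNFα (purple, upper) and FGF19 minus Mock (blue, lower) for each of the 8 members, with 95% intervals as bars; filled circles were called at an adjusted p under 0.05. Both values of TNIP2 lie near −1.1 to −1.2, TNFAIP3 stands at −0.18 and 0.60, and TRAF1 at −0.87 and −0.20.

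Genes of the same receptor complex were compared as a list. Of 20 listed genes for TNF receptors, adaptors, the linear ubiquitin chain assembly complex, ubiquitin-conjugating enzymes, deubiquitinases and A20 partners, 17 had a probeset. RIPK1, SPATA2 and UBE2D3 were not analysed here. With TNFα, 0 of 17 were higher and 0 lower than in Mock by limma, 1 of 17 had an unadjusted p under 0.05 (12.5% of all probesets), and the list had a median log2 difference of 0.00. TNFRSF1B, the second TNF receptor gene, had the smallest p, with a log2 difference of 0.57 (adjusted p = 0.187), followed by TNFRSF1A with −0.18 (adjusted p = 0.466) and the ubiquitin ligase gene ITCH with 0.15 (adjusted p = 0.494). Between FGF19 + TNFα and TNFα, 4 were higher and 6 lower, with a median of −0.14, beside 19.4% of all probesets higher, 12.9% lower and 32.4% in either direction. UBE2V1, which encodes a partner of the enzyme that builds signaling ubiquitin chains, was 2.02-fold higher (adjusted p = 0.00438). RNF11, an A20 partner gene, was 1.48-fold higher (adjusted p = 0.0106), and TANK, which encodes a TRAF-binding protein, higher by 0.59 on the log2 scale (adjusted p = 0.0141). TNFRSF1B, among the 6 lower, was 1.45-fold lower (adjusted p = 0.031). Also called lower were RBCK1 (log2 difference −0.75), SHARPIN (−0.48) and RNF31 (−0.32), of the linear ubiquitin chain assembly complex. TRADD (−0.62) and OTUD7B (−0.47) were called lower too, and OTULIN (0.31) was the remaining gene called higher. Without TNFα, between FGF19 and Mock, 4 of 17 were higher and 6 lower too, beside 18.2% and 14.1% of all probesets. The log2 differences there were 0.88 for UBE2V1, 0.45 for RNF11, 0.50 for TANK and 0.34 for OTULIN. They were −0.75 for RBCK1, −0.52 for SHARPIN, −0.57 for RNF31, −0.78 for TRADD and −0.60 for OTUD7B. Each of these was called there as well. TNFRSF1B had 0.00 without TNFα, and TNFRSF1A (−0.29) was called lower in its place. UBE2V1 has close paralogs, whose transcripts its probes can share.

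Of 16 listed relatives of the members, from the TRAF, IAP, TNIP and TNFAIP8 families and other TNF-induced protein genes, 16 had a probeset. With TNFα 1 was higher than in Mock and 0 lower, beside 0.967% of all probesets higher and 0.0961% lower. TNFAIP1, an adaptor for a ubiquitin ligase, rose 1.55-fold (adjusted p = 0.0326). Without adjustment, limma's p was also under 0.05 for TNFAIP6, TNIP3, TRAF3, TRAF4, TRAF6 and XIAP, all higher, and for TRAF5, lower. Of all probesets, 12.5% reached an unadjusted p under 0.05 in either direction. TNFAIP6, with a mean signal of 67.3 with TNFα and 24.6 in Mock, had a log2 difference of 1.45 that was not called (adjusted p = 0.0522). TNIP3, a further gene of the A20-binding family, had mean signals of 64.7 with TNFα and 34.2 in Mock (0.90, adjusted p = 0.2). On the Mock arrays the 20th percentile of signal was 30.9 and 31.6, above the TNFAIP6 mean and just below that of TNIP3. Between FGF19 + TNFα and TNFα, 4 relatives were higher and 3 lower, a share not far from the 32.4% of all probesets called in either direction. TRAF4 was 1.88-fold lower (adjusted p = 0.00387) and TRAF7 1.74-fold lower (adjusted p = 0.00558), whereas TRAF6, the adaptor of interleukin-1 and Toll-like receptors, was 1.67-fold higher (adjusted p = 0.00423). The TRAF genes called in this comparison had both signs, with TRAF1, TRAF4 and TRAF7 lower and TRAF5 (0.42, adjusted p = 0.0238) and TRAF6 higher, and TRAF3 was not called. Between FGF19 and Mock, 4 relatives were higher and 2 lower, beside 18.2% and 14.1% of all probesets. The log2 differences there were −0.78 for TRAF4, −0.77 for TRAF7 and 0.92 for TRAF6, all called. TRAF5 had 0.28 and was not called (adjusted p = 0.079).

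The members fell into more than 1 pattern over the 8 arrays. Pearson correlations of log2 signal, given as a description over arrays that share groups, were 0.993 between TRAF1 and BIRC2, 0.991 between TRAF1 and TNFAIP8, and 0.983 between TNFAIP3 and TNIP1. Those of TNIP2 with the other 7 members ran from −0.13 with CYLD to 0.55 with TNFAIP2. Among 17193 other probesets with 1 gene symbol and a mean signal above the dimmest 20 percent, those most like TNFAIP3 were KLF7 (r = 0.998), RARRES1 (0.998), NFKBIZ (0.998), SGPP2 (0.998) and GCH1 (0.997). Their log2 differences for TNFα against Mock were 2.01, 3.07, 2.20, 2.47 and 1.60, all smaller than that of TNFAIP3. Those most like TNIP2 were NECTIN2 (r = 0.998), RRP12 (0.996), DAPK3 (0.996), CREB3 (0.996) and DDIT4 (0.995). All 5 had negative differences for FGF19 against Mock, from −1.92 for DDIT4 to −0.88 for NECTIN2, beside −1.18 for TNIP2. The genes most like TNFAIP3 and TNIP2 were picked on these same arrays, so their shared directions follow from the choice.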

How the data were processed

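DU145 RNA was hybridised to 8 Affymetrix Human Gene 1.0 ST arrays, 2 for each of FGF19 + TNFα, TNFα, FGF19 and Mock. The authors deposited linear PLIER signal intensity made with Affymetrix Expression Console. The versions and the normalization were not given in the sources used here. Groups and replicate numbers were taken from the sample titles. All 8 columns were used. Zeros, 240 in all, were replaced by 0.01, the lowest signal above 0 on their arrays, before log2, with no further scaling. All 33297 probesets were fitted with limma 3.58.1 in R 4.3.3 (lmFit, eBayes, 4 groups, no block), tested on simulated data first. The labels and the study's methods disagree on heparin and TNFα doses. The platform annotation gave 1 symbol for 19460 probesets, updated through Entrez identifiers for 19429. The genes named were the members, up to 3 genes a list with the smallest p in each of 2 comparisons, and the 5 probesets most correlated with TNFAIP3 and with TNIP2. Further listed genes that were called or had an unadjusted p under 0.05 were named beside these. The promoter search added no test. Members and lists were chosen with earlier results of these data known. The alternatives tried were 16 added before log2, quantile normalization, cyclic loess, leaving out the dimmest 20 percent, no moderation, a fit of only the groups compared, a replicate block and leaving out each array.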

Additional observations from a re-analysis of the deposited data

How the results depend on the processing

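Over the 5 comparisons of each member, 249 values under the alternatives that kept all 8 arrays or only the groups compared had the same direction and side of the threshold, 18 lost the call, 3 gained it and 2 changed sign. With 1 array left out, 270 values were the same, 45 lost the call and 5 changed sign. The cause was not tested. The sign changes were all of values not called: CYLD in FGF19 + TNFα against TNFα became −0.0335 after quantile normalization and ran from −0.0345 to 0.0743 with 1 array left out, TNFAIP8 in FGF19 against Mock became −0.0270 after quantile normalization and ran from −0.0864 to 0.106, and the interaction of TNIP2 ran from −0.0480 to 0.130. In a fit of only the groups compared, the members called were 2 for TNFα against Mock, 2 for FGF19 against Mock and 0 for FGF19 + TNFα against FGF19, for which 16 added before log2 gave 5, no moderation 1 and the replicate block 1. With 1 array left out the count was 3 to 7 for TNFα against Mock, 1 to 4 for FGF19 against Mock, 3 to 5 for FGF19 + TNFα against TNFα, 1 to 2 for FGF19 + TNFα against FGF19, and 5 to 8 over the 4 groups. The block changed no other count of members. Over all probesets, 354 were called for TNFα against Mock, and 562 without the dimmest 20 percent, 193 with no moderation, 103 with only the groups compared and 90 to 284 with 1 array left out. For FGF19 against Mock 10731 were called, and 7089 with only the groups compared and 5755 to 9817 with 1 array left out, and for FGF19 + TNFα against TNFα 10773, and 4480 to 11663 with 1 array left out. For FGF19 + TNFα against FGF19 94 were called, and 180 with 16 added, 173 without the dimmest 20 percent, 38 with no moderation, 58 with the block, 0 with only the groups compared and 6 to 50 with 1 array left out. Over the 4 groups 6966 passed, and 2474 with no moderation and 1115 to 6402 with 1 array left out. Deviations of same-numbered arrays correlated at −0.02 to 0.20 between groups, most for FGF19 with FGF19 + TNFα. FGF19 replicate 1 correlated at 0.981 with FGF19 + TNFα replicate 1 and at 0.969 with FGF19 replicate 2. Whether replicate numbers paired some arrays was not tested. Low signals such as those of TRAF1 in Mock and FGF19 limit the size of a fold, and no group of 2 arrays allowed a check for an outlying array.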
